A study of Homo sapiens with 6 samples.

Results

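The genes of the low-affinity Fc gamma receptor locus on chromosome 1 were examined in the leukemia cell line SEM, together with the receptor gamma chain and a heat shock gene that lies among the receptors. The 8 genes, of 57820 listed, were chosen by symbol: *FCGR2A*, *FCGR2B*, *FCGR2C*, *FCGR3A*, *FCRLA*, *FCRLB*, *FCER1G* and *HSPA6*. The 3 *FCGR2* genes were put on this list for their higher level in the CTCF-dRBR libraries, so their difference between the groups is given as a description with no test. The other 5 genes were not picked for that difference and were tested.

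SEM is an established line of B-cell acute lymphoblastic leukemia (B-ALL). Total RNA was sequenced after rRNA depletion from 3 CTCF-WT libraries and 3 CTCF-dRBR libraries, to compare cells with an intact CTCF and cells whose CTCF lacks its RNA-binding region. Both groups derived from SEM cells that carried the endogenous CTCF-miniAID-mClover3 fusion and constitutive OsTIR1(F74G), which degrades that fusion when the auxin analog 5-Ph-IAA is added. Both were given 5-Ph-IAA for 24 h and doxycycline at 1 µg/mL for the last 18 h, after 6 h of 5-Ph-IAA alone. Doxycycline induced an HA-tagged wild-type CTCF in CTCF-WT and the transgene TRE3G-HA-CTCF-dRBR in CTCF-dRBR, each brought in by transduction. The genotype label of the CTCF-WT libraries names the fusion and no transgene, so the induced wild-type CTCF of that group is known from the study's methods. No source used here says that the libraries of a group came from separate cultures, so each p-value measures the spread between these libraries, which may be technical.

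Expected counts, the RSEM estimates of the reads of each gene, summed to between 30034505 and 53166735 a library. CTCF-dRBR replicate 1 stood apart, with the lowest total. Its log2 levels also fell with the GC content of a gene more steeply than those of any other library. Spearman's rho across genes was −0.775, −0.417 and 0.503 in CTCF-dRBR replicates 1 to 3, against 0.704, 0.669 and 0.332 in CTCF-WT. The negative values were all in CTCF-dRBR, and leaving out replicate 1 does not remove the negative trend from that group. Because replicate 1 stood apart, folds of the members are given with and without that library. Folds of other genes are so given where leaving it out turned the sign or moved the value by more than 1.5 times. B-lineage markers were present in every library, with summed CPM, counts scaled to a common library total, of 997 to 1195 in CTCF-WT and 719 to 1189 in CTCF-dRBR. RNA of *CTCF* was at 210 to 249 CPM in CTCF-WT, against 252 to 273 CPM in CTCF-dRBR, which does not check the degron, because the fusion is removed as protein and the transgene may add reads to the gene.

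Fc gamma receptors bind the constant part of IgG and link antibody to the cell. Activating receptors signal through a tyrosine motif called ITAM, carried either in their own tail (*FCGR2A*, *FCGR2C*) or by the gamma chain encoded by *FCER1G*, which pairs with the receptor encoded by *FCGR3A*. The receptor of *FCGR2B* carries the inhibitory motif ITIM and is the main Fc gamma receptor of B cells, where it restrains signals of the B-cell receptor. The *FCGR2* genes arose by duplication, and *FCGR2C* joins the front of *FCGR2B* to the tail of *FCGR2A*.

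Because the reads were assigned to near-identical genes, the sequences that tell the *FCGR2* genes apart are shown first. The first window lies in exon 4 of each gene, in the part that encodes the second immunoglobulin domain, on the plus strand of GRCh37 chromosome 1. It spans chr1:161479698-161479757 in *FCGR2A*, chr1:161642853-161642912 in *FCGR2B* and chr1:161561022-161561081 in *FCGR2C*. Capitals mark the 5 positions of 60 at which the genes differ.
FCGR2A: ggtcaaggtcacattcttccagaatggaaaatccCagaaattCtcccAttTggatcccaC
FCGR2B: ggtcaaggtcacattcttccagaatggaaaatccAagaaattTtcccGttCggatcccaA
FCGR2C: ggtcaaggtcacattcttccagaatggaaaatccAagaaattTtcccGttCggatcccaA
Here *FCGR2B* and *FCGR2C* were the same over all 60 bases, and a read from one cannot be told from a read of the other.

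The tail of the receptor shows the opposite kinship. The next windows lie in coding sequence of exon 7 at chr1:161487825-161487884 in *FCGR2A* and chr1:161569480-161569539 in *FCGR2C*, and in exon 8 at chr1:161647281-161647340 in *FCGR2B*, the last 60 coding bases ahead of its stop codon (GRCh37, plus strand). Capitals mark tyrosine codons in frame, 2 in this stretch of *FCGR2A* and *FCGR2C* and 1 in that of *FCGR2B*. They mark every such codon in the window and do not outline the ITAM, which the window need not hold whole.
FCGR2A: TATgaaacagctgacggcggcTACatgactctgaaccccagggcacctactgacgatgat
FCGR2C: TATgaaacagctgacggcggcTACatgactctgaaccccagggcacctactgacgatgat
FCGR2B: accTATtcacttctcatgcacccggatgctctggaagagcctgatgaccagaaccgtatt
*FCGR2A* and *FCGR2C* were identical across this window, while the best match of the window anywhere in the *FCGR2B* transcript held 25 of 60 bases.

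Along the whole *FCGR2C* transcript (ENST00000466542, 1070 bases), 661 of 1011 overlapping windows of 60 bases had an identical match in *FCGR2B* and 254 had one in *FCGR2A*, with 106 identical in both. The last window identical to *FCGR2B* started at base 800.

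**Figure D1:**
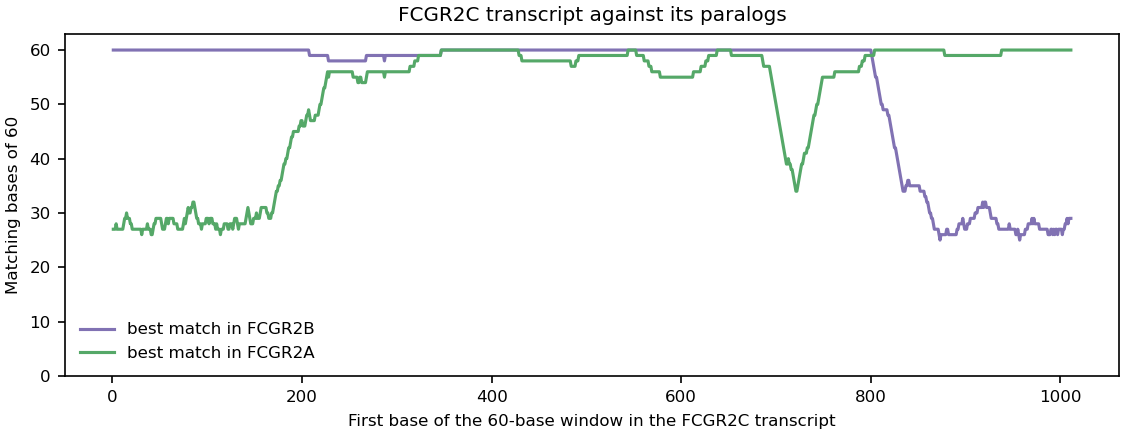
Bases that match, of 60, between each window of the *FCGR2C* transcript and its best match in the transcripts of *FCGR2B* (purple) and *FCGR2A* (green), against the first base of the window. The purple line sits at or near 60 up to base 800 and then drops, to 25 at its lowest, where the green line is at or near 60.

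At the length of the reads the genes kept different amounts of sequence of their own. Of the stretches of 100 bases in each transcript, 94.7% of *FCGR2A*, 70.2% of *FCGR2B* and 32.7% of *FCGR2C* occurred in neither paralog. *FCGR2C* shared 60.2% of its stretches with *FCGR2B* and 11.3% with *FCGR2A*. Most positions of *FCGR2A* can thus give reads of its own, and most positions of *FCGR2C* cannot. The expected counts of the 3 genes summed to a whole number, within 0.02, in 6 of 6 libraries, while the single values were fractional in all 6.

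Levels per length, as TPM averaged over the 6 libraries, ran from 17.0 for *FCGR2A* through 4.84 for *FCGR2C*, 4.78 for *FCRLA*, 2.93 for *FCGR2B* and 1.39 for *FCRLB* to 0.268 for *HSPA6*, 0.187 for *FCER1G* and 0.01 for *FCGR3A*. Library by library, *FCGR2A* was above *FCGR2C* in TPM in 6 of 6. *FCGR2C* and *FCRLA* changed places, with *FCGR2C* higher in 2 of 6 libraries, so their order was not distinct, and *HSPA6* was above *FCER1G* in 5 of 6. *FCRLA* over *FCGR2B*, *FCGR2B* over *FCRLB*, *FCRLB* over *HSPA6* and *FCER1G* over *FCGR3A* held in all 6. Of these neighboring pairs, only *FCRLB* with *HSPA6* and *FCER1G* with *FCGR3A* had ranges of TPM over the 6 libraries that did not overlap.

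*FCGR2A* (ENSG00000143226.9, chr1:161475220-161493803, plus strand, GRCh37), the activating receptor with its own ITAM, was the most abundant member. Replicates 1 to 3 had 20.7, 21.4 and 25.1 CPM in CTCF-WT, against 44.1, 34.8 and 32.6 CPM in CTCF-dRBR, the order used for each gene here. The groups did not overlap, and CTCF-dRBR replicate 1 was the highest of all. The means were 22.4 ± 2.35 and 37.2 ± 6.08 CPM (SD, n = 3 each), a log2 fold change of 0.70 with an SE of 0.16, and 0.59 without CTCF-dRBR replicate 1.

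*FCGR2B* (ENSG00000072694.14, chr1:161632933-161648444), the inhibitory receptor, had 4.55, 4.20 and 4.44 CPM in CTCF-WT, against 7.86, 11.02 and 10.7 CPM in CTCF-dRBR. The groups did not overlap here either, but CTCF-dRBR replicate 1 was now the lowest of its group. The means were 4.40 ± 0.182 and 9.85 ± 1.73 CPM (SD, n = 3 each), and the log2 fold change was 1.16 with an SE of 0.18, or 1.30 without that library.

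*FCGR2C* (ENSG00000244682.3, chr1:161551129-161575452), annotated by the files as a polymorphic pseudogene a class for genes that only some alleles can translate, had the highest log2 fold change of the 6 tested members in limma-voom, though not with quality weights (1.30, against 1.36 for *FCGR2B*). It had 2.56, 2.79 and 2.42 CPM in CTCF-WT, against 6.67, 6.65 and 7.54 CPM in CTCF-dRBR. The CTCF-dRBR libraries lay close together and all above the CTCF-WT libraries. Means of 2.59 ± 0.188 and 6.95 ± 0.509 CPM (SD, n = 3 each) gave a log2 fold change of 1.43 with an SE of 0.15, and 1.45 without CTCF-dRBR replicate 1.

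All 3 *FCGR2* genes were thus among those whose every CTCF-dRBR library lay above every CTCF-WT library, a pattern held by 20.0% of the 14044 genes tested, and one that the choice of these genes fixed. Since reads can move between the paralogs, their counts were also added. The sum was 27.8, 28.4 and 31.9 CPM in CTCF-WT, against 58.6, 52.5 and 50.8 CPM in CTCF-dRBR, without overlap. The mean was 1.84 times higher in CTCF-dRBR, at a log2 fold change of 0.87 with an SE of 0.11, and 0.81 without CTCF-dRBR replicate 1. The sum does not depend on how reads were divided among the 3 genes. With the GC trend of the libraries removed, the log2 fold change of the sum was 0.86.

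**Figure D2:**
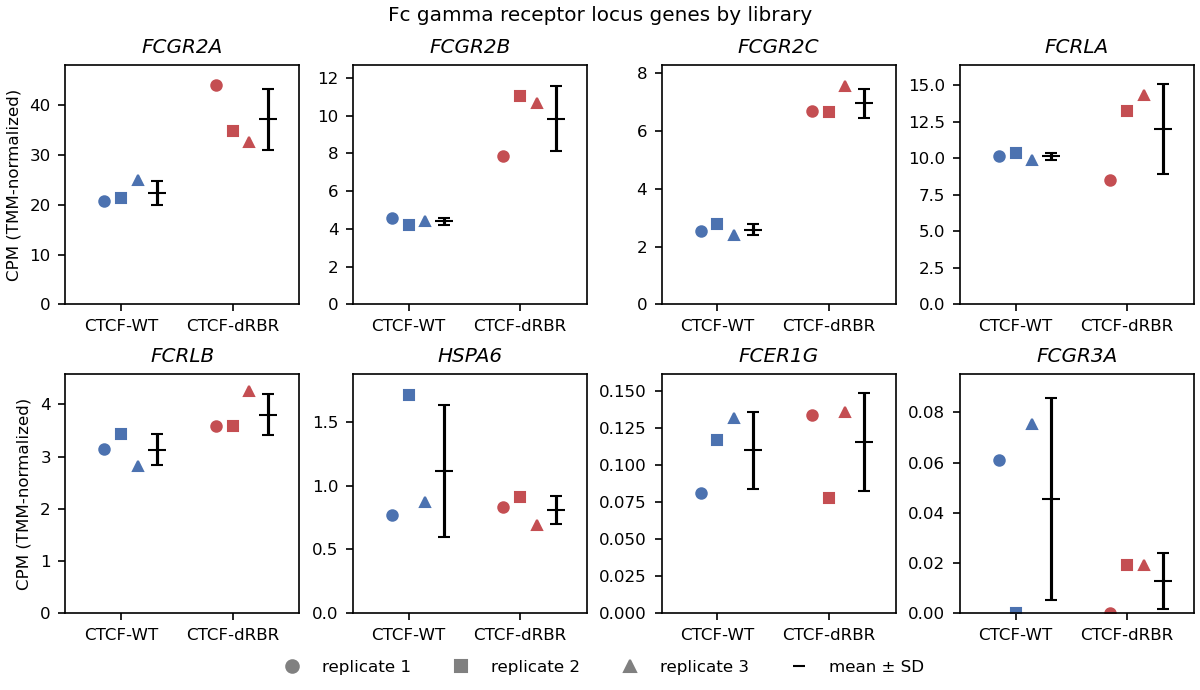
TMM-normalized CPM (vertical axes, from 0, a scale for each gene) of the 8 genes in the 3 CTCF-WT (blue) and 3 CTCF-dRBR (red) libraries, with symbols for replicates and black bars for the mean ± SD. The *FCGR2* genes and *FCRLB* are higher in CTCF-dRBR without overlap, as are 20.0% of all genes tested. *FCRLA* is low in CTCF-dRBR replicate 1 alone, and *FCER1G* and *FCGR3A* stay under 0.15 CPM.

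The division of the summed counts among the genes also differed between libraries. *FCGR2A* took 74.4%, 75.4% and 78.5% of the expected counts in CTCF-WT, and 75.2%, 66.3% and 64.2% in CTCF-dRBR. CTCF-dRBR replicate 1 lay with the CTCF-WT libraries in this share, and CTCF-dRBR replicates 2 and 3 lay below them. *FCGR2B* took 16.4%, 14.8% and 13.9% in CTCF-WT and 13.4%, 21.0% and 21.0% in CTCF-dRBR, where replicate 1 again stood on the side of CTCF-WT. *FCGR2C* took 9.19%, 9.81% and 7.57% against 11.4%, 12.7% and 14.8%, and here the groups did not overlap. The part that the assignment of shared reads plays in these shares was not tested.

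**Figure D3:**
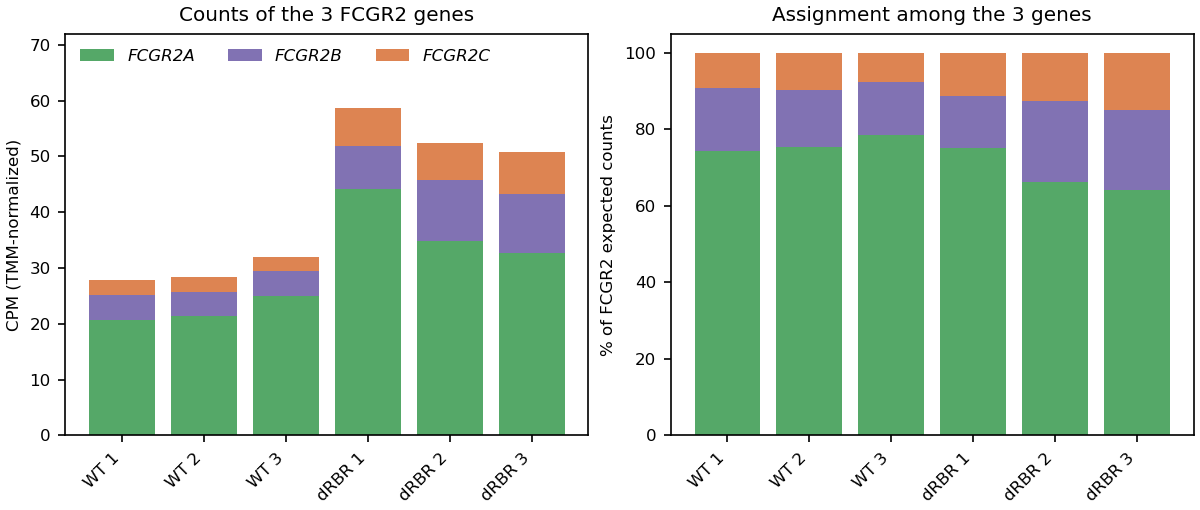
Left, CPM of *FCGR2A* (green), *FCGR2B* (purple) and *FCGR2C* (orange) stacked for each library; right, the percentage of the summed expected counts assigned to each gene. The stacked height is 27.8 to 31.9 CPM in CTCF-WT, against 50.8 to 58.6 CPM in CTCF-dRBR, and the *FCGR2A* share is lowest in CTCF-dRBR replicates 2 and 3.

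Promoter windows from RefSeq, 250 bases before to 50 after a start (build GRCh38.p14, unlike the GRCh37 of the files), were found for 7 of the 8 genes, 14 windows in all, and not for *FCGR2C*. A window of each *FCGR2* gene with an entry is shown, since these genes were higher together, chr1:161505207-161505506 for *FCGR2A* and chr1:161646993-161647292 for the more upstream of the *FCGR2B* starts, both on the plus strand. Capitals mark the match to a TATA box (TATAAA, either strand) in the *FCGR2A* window, and no other searched motif was in either window shown.
FCGR2A: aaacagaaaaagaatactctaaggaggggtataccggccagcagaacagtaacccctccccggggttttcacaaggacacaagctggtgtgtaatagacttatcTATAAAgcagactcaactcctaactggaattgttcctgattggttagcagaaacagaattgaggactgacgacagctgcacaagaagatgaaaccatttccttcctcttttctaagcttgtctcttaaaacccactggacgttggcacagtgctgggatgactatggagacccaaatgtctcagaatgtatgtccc
FCGR2B: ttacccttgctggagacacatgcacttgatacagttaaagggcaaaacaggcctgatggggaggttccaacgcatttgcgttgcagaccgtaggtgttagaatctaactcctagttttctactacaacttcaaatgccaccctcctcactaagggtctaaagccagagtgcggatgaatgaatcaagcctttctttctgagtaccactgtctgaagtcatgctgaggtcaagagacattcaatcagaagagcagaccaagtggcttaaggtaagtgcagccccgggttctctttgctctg
Each motif was searched on both strands, and no motif contains another. The letters AGNGGGCGC, from the core of the CTCF motif, matched in 0 of the 14 windows, against 4.27% of 35116 promoters of the same length. AGGAAGT, the site of the myeloid and B-cell factor PU.1, matched in 4, of which 1 belongs to *FCRLA* and 3 to *FCGR3A* (8.24% of all promoters). Windows of 1 gene can overlap, and 2 of those of *FCGR3A* start 2 bases apart and hold the same match. The TATA box matched in 2 (11.5%). GAANNTTC, from the heat shock element, matched in 3 windows (6.77% of all), and the *HSPA6* window held 2 matches. Another of the 3 was the *FCGR2B* window that is not shown, chr1:161662893-161663192, with 1 match. These matches describe letters in the windows and say nothing of what binds there.

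The remaining receptor, *FCGR3A* (ENSG00000203747.5, chr1:161511549-161520758, minus strand), known from natural killer cells and macrophages, was at the edge of detection. Its expected counts were 3, 0 and 4 in CTCF-WT and 0, 1 and 1 in CTCF-dRBR. A count of 0 allows up to 0.0584 CPM in CTCF-WT replicate 2 and up to 0.1 CPM in CTCF-dRBR replicate 1, the level of 3 counts in those libraries, counting error only. Means of 0.0455 ± 0.0401 and 0.0129 ± 0.0112 CPM (SD, n = 3 each) gave p = 0.4 in an exact two-sided permutation test (0.1 is the smallest p that 3 against 3 allows). Its paralog *FCGR3B*, the receptor of neutrophils, had 1, 1 and 5 counts against 2, 0 and 1.

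*FCER1G* (ENSG00000158869.6, chr1:161185024-161190489), the gamma chain, lies 284.7 kb upstream of *FCGR2A*. It had 4, 6 and 7 counts in CTCF-WT and 4, 4 and 7 in CTCF-dRBR. The groups overlapped, with means of 0.110 ± 0.0259 and 0.116 ± 0.0331 CPM (SD, n = 3 each; exact permutation p = 0.8). A change in either gene smaller than these few counts was not detectable at this depth.

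*FCRLA* (ENSG00000132185.12, chr1:161676762-161684142) and *FCRLB* encode Fc receptor-like proteins that stay inside B-lineage cells. *FCRLA* had 10.1, 10.4 and 9.89 CPM in CTCF-WT, against 8.49, 13.2 and 14.3 CPM in CTCF-dRBR. CTCF-dRBR replicate 1 lay below all CTCF-WT libraries and the other 2 lay above them. The log2 fold change of 0.23 (SE 0.22) did not pass the test (limma-voom, adjusted p = 0.457). Without CTCF-dRBR replicate 1 it was 0.44 (adjusted p = 0.0685), and with limma's quality weights, which gave that library a weight of 0.0969, it was 0.36 and passed (adjusted p = 0.00249).

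*FCRLB* (ENSG00000162746.10, chr1:161691334-161697933) had 3.14, 3.43 and 2.83 CPM in CTCF-WT, against 3.58, 3.59 and 4.25 CPM in CTCF-dRBR. The groups did not overlap, and the closest libraries were CTCF-WT replicate 2 and CTCF-dRBR replicate 1. Of all genes tested, 20.0% likewise had every CTCF-dRBR library above every CTCF-WT library. For *FCRLB* the difference was small. The log2 fold change of 0.29 (SE 0.16) did not pass (limma-voom, adjusted p = 0.273), and was 0.32 without CTCF-dRBR replicate 1 (adjusted p = 0.223).

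*HSPA6* (ENSG00000173110.6, chr1:161494330-161496684), a stress-inducible member of the HSP70 chaperones, starts 527 bases after the end of *FCGR2A*. It had 0.768, 1.71 and 0.872 CPM in CTCF-WT, against 0.829, 0.912 and 0.694 CPM in CTCF-dRBR. Only CTCF-WT replicate 2 reached 1 CPM, and *HSPA6* was tested through that library alone. The log2 fold change of −0.38 (SE 0.36) did not pass (limma-voom, adjusted p = 0.475), and it was 0.16 with the GC trend removed and −0.40 without CTCF-dRBR replicate 1.

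Of the 5 genes not picked for the contrast, 3 were tested and 0 passed an adjusted p of 0.05 in limma-voom, against 0% of all 14044 genes tested, of which 3569 had an unadjusted p under 0.05. None of those 3 genes had an unadjusted p under 0.05 (0.32 for *FCRLA*, 0.128 for *FCRLB* and 0.339 for *HSPA6*), and 0 passed with edgeR or DESeq2. Without CTCF-dRBR replicate 1, 535 of 13731 genes passed (3.90%), among them none of the 3.

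The pseudogene *HSPA7* (ENSG00000225217.1, chr1:161576081-161578007), a near copy of *HSPA6* that starts 629 bases after the end of *FCGR2C*, had the other pattern. It had 1.58, 1.13 and 1.41 CPM in CTCF-WT, against 2.41, 2.21 and 3.36 CPM in CTCF-dRBR, higher without overlap, as were 20.0% of all genes tested. Its log2 fold change of 0.95 (SE 0.25) did not pass (limma-voom, adjusted p = 0.134, and 0.0735 without CTCF-dRBR replicate 1), though it did with DESeq2 (adjusted p = 0.0209), quality weights (0.00147), limma-trend on TPM with a pseudocount of 1 (0.0125) or 0.1 (0.0294), and the GC trend removed (0.0379). Its log2 fold change in those 5 settings was 0.96, 0.90, 0.62, 1.30 and 1.61, and over all settings the adjusted p ran from 0.00147 to 0.482. Of the stretches of 100 bases in *HSPA6*, 27.8% also occur in *HSPA7*, so reads can be split between them.

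Their sum, which does not depend on that split, was 2.34, 2.84 and 2.28 CPM in CTCF-WT, against 3.24, 3.12 and 4.06 CPM in CTCF-dRBR. It was higher in each CTCF-dRBR library than in any CTCF-WT library, with means of 2.49 ± 0.308 and 3.47 ± 0.509 CPM (SD, n = 3 each; exact permutation p = 0.1, the smallest possible). Such a gap between the groups was common, with 20.0% of all genes tested higher and 17.5% lower without overlap. *HSPA7* took 67.2%, 39.8% and 61.8% of the counts of the pair in CTCF-WT and 74.5%, 70.8% and 82.9% in CTCF-dRBR, and CTCF-WT replicate 2, the library high in *HSPA6*, had the lowest share (exact permutation p = 0.1).

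Along the locus, the genes from *FCGR2A* to *FCRLB* lie within 222.7 kb. Of 28 genes listed on both sides of the members and between them, 18 were tested and 0 passed (limma-voom, 5 at an unadjusted p under 0.05, 2 passing without CTCF-dRBR replicate 1, *SDHC* and *PFDN2*, the latter named after its values were seen). Of the 18, 7 had every CTCF-dRBR library below every CTCF-WT library, which 17.5% of all genes tested did, and 1, *HSPA7*, had the reverse. Their median log2 fold change was −0.37, against −0.0076 over all genes tested, and −0.21 without CTCF-dRBR replicate 1. Upstream, *SDHC*, a subunit of succinate dehydrogenase, had 24.4, 22.2 and 18.6 CPM in CTCF-WT, against 5.85, 10.5 and 10.1 CPM in CTCF-dRBR. This was a log2 fold change of −1.32 (SE 0.24; limma-voom, adjusted p = 0.0991), and of −1.07 (adjusted p = 0.0333) without CTCF-dRBR replicate 1.

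*C1orf192*, next to *SDHC*, had no count in any library. Downstream of *FCRLB*, the phosphatase gene *DUSP12* had a log2 fold change of 0.08 (SE 0.11; limma-voom, adjusted p = 0.624) and *ATF6*, a sensor of endoplasmic reticulum stress, at 0.33 (SE 0.17; adjusted p = 0.249). Without CTCF-dRBR replicate 1 they were at 0.01 and 0.17. The long noncoding RNA that spans *FCGR2A* to *FCGR2C* in the annotation, RP11-25K21.6, was listed at 0 in all libraries.

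**Figure D4:**
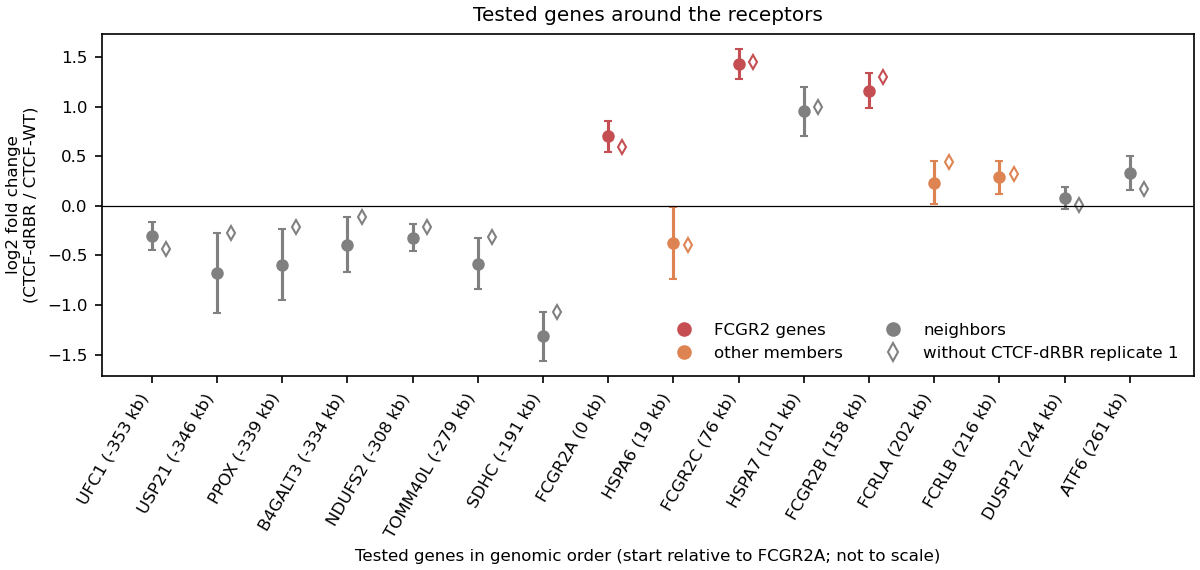
Log2 fold change (CTCF-dRBR over CTCF-WT, limma-voom) with its SE of tested genes around the receptors, in genomic order, with the distance of each gene's start from that of *FCGR2A* in kb. *FCGR2* genes are red, other members orange and neighbors gray; open diamonds leave out CTCF-dRBR replicate 1. The 7 genes plotted upstream of *FCGR2A* all lie below 0, *SDHC* lowest at −1.32, and *FCGR2C* lies highest at 1.43.

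Most Fc receptors outside the members were under 1 CPM: 4 of 13 listed genes were tested, 0 passed (limma-voom, 0 at an unadjusted p under 0.05), and none kept its groups apart. *FCGRT*, the neonatal Fc receptor that recycles IgG, ranged from 10.1 CPM in CTCF-dRBR replicate 1 to 62.7 CPM in CTCF-WT replicate 2. Its log2 fold change of −0.84 (SE 0.56) was −0.21 without CTCF-dRBR replicate 1, and that of *TRIM21*, a cytosolic antibody receptor, was 0.06 (SE 0.12) and −0.01. *FCGR1A*, the high-affinity receptor, had 0.925 to 1.03 CPM over all libraries and was added after its values were seen.

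Of 22 genes that carry Fc receptor signals, 19 were tested and 0 passed (limma-voom, 6 at an unadjusted p under 0.05). CTCF-dRBR was higher without overlap for 4 of them and lower for 2, where 20.0% and 17.5% of all genes tested were, and the median log2 fold change was −0.09, or 0.03 without CTCF-dRBR replicate 1. The higher genes included the kinases *SYK* and *FYN* and the adaptor *BLNK*, and the 2 lower ones were *PLCG1* and the adaptor *SHC1*. *BLNK* was low, at 0.530 to 0.755 CPM in CTCF-WT, against 0.932 to 1.30 CPM in CTCF-dRBR. It was thus tested only through the group where it was high. *SYK*, *FYN*, *BLNK* and *SHC1* were named after their values were seen.

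*SYK*, the kinase that binds phosphorylated ITAMs, had 140 to 159 CPM in CTCF-WT, against 166 to 178 CPM in CTCF-dRBR. *PLCG1*, a phospholipase downstream of it, had 32.3 to 36.8 CPM and 17.8 to 24.4 CPM, a log2 fold change of −0.70 (SE 0.15; limma-voom, adjusted p = 0.108, and 0.0426 without CTCF-dRBR replicate 1). *PTPN6*, a phosphatase drawn to inhibitory motifs, was at −0.36 (SE 0.15; adjusted p = 0.196) and *LAT2*, an adaptor, at −0.19 (SE 0.19; adjusted p = 0.494). Without CTCF-dRBR replicate 1 these were −0.24 and 0.02. The partner adaptor of NK receptors, *TYROBP*, had at most 0.0390 CPM.

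The related Fc receptor-like genes outside the locus were low. Of 6 listed, *FCRL5* alone was tested, with a log2 fold change of 0.66 (SE 0.27; limma-voom, adjusted p = 0.195) and CTCF-dRBR higher without overlap. It had 0.734, 0.838 and 0.868 CPM in CTCF-WT, against 1.81, 1.28 and 1.01 CPM in CTCF-dRBR. *FCRL5* was thus tested only through the group where it was high. Among 14 HSP70 family and chaperone genes, 13 were tested, with 1 higher without overlap (*HSPA7*), 4 lower (*HSPB1* and, named after their values were seen, *HSPA1B*, *HSPA5* and *DNAJB1*) and 0 past the test (limma-voom, 5 at an unadjusted p under 0.05). Over all genes tested, 20.0% were higher and 17.5% lower without overlap. *HSPB1* had a log2 fold change of −1.31 (SE 0.41), *HSPA9* of −0.18 (SE 0.18) and *HSPA8*, the abundant constitutive form, of 0.11 (SE 0.19). Without CTCF-dRBR replicate 1 they were at −0.89, −0.38 and −0.10.

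Markers of cells known for Fc receptors were read for each group. In bulk RNA, fewer cells of a type and less RNA per cell cannot be told apart. The 10 monocyte and granulocyte markers summed to 19.2 to 22.9 CPM in CTCF-WT, against 17.99 to 24.9 CPM in CTCF-dRBR, ranges that overlapped, with 4 tested and 0 past the test. Their counts came from *LYZ*, *CD33*, *ITGAM* and *CSF1R*, while *S100A9* was at 0 in all libraries and *CD14* at most at 0.0755 CPM. *ITGAM* had a log2 fold change of 0.54 (SE 0.18; limma-voom, adjusted p = 0.157) and was higher in CTCF-dRBR without overlap. *LYZ*, at −0.17 (SE 0.14), was lower without overlap. Among all genes tested, 20.0% were higher and 17.5% lower in this way. *CD33* was at −0.08 (SE 0.14) and *CSF1R* at −0.18 (SE 0.49), which turned to 0.31 without CTCF-dRBR replicate 1.

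The 7 NK markers summed to 20.2 to 29.0 CPM in CTCF-WT, against 14.8 to 24.8 CPM in CTCF-dRBR, nearly all from *NKG7* (log2 fold change −0.70, SE 0.27) and *NCAM1* (0.39, SE 0.21). The 5 T-cell markers summed to at most 0.189 CPM in CTCF-WT, and to 0.802 CPM in CTCF-dRBR replicate 1 and 0.116 to 0.155 CPM in CTCF-dRBR replicates 2 and 3. The 5 mast cell and basophil markers were at most at 0.0974 CPM in CTCF-WT, at 0.301 CPM in CTCF-dRBR replicate 1 and at 0.0388 to 0.0776 CPM in the other 2, so these higher sums rest on 1 library. The 4 platelet markers summed to 1.89 to 4.15 CPM in CTCF-WT, to 0.134 CPM in CTCF-dRBR replicate 1 and to 1.78 to 3.28 CPM in the other 2. *CD3D*, *TPSAB1*, *PF4* and *PPBP* were at 0 in all libraries. B-lineage markers went different ways. *CD79A*, a signaling chain of the B-cell receptor, had a log2 fold change of −0.70 (SE 0.45), and of −0.23 without CTCF-dRBR replicate 1. *EBF1* (0.27, SE 0.09), the low *MS4A1* (1.04, SE 0.35) and *CD72*, at 74.6 to 77.6 CPM against 92.0 to 100 CPM, were higher in CTCF-dRBR without overlap. *MS4A1* reached 1 CPM only in CTCF-dRBR replicate 1 (1.67 CPM). It was thus tested through that library alone, in the group where it was high, and was not tested without it. *PAX5*, the B-lineage transcription factor, was lower without overlap, at 322 to 392 CPM against 165 to 307 CPM. Of the 10 markers, 3 were thus higher and 1 lower without overlap, where 20.0% and 17.5% of all genes tested were. *CD72* and *PAX5* were named after their values were seen, and 0 of the 10 passed limma-voom (4 at an unadjusted p under 0.05). The part of any such cells in the *FCGR2* levels was not tested.

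The tested members did not follow one another closely from library to library. Likeness was measured as the root mean square difference between the log2 CPM of 2 genes, each centered over the 6 libraries, with small values for like patterns. It was 0.206 between *FCRLA* and *FCRLB* and 0.217 between *FCGR2B* and *FCGR2C*, which share reads, against 0.365 between *FCGR2A* and *FCGR2B* and 0.957 between *FCGR2C* and *HSPA6*. Against the summed *FCGR2* counts, the 5 most like of 14038 other genes were *LPAR1* (0.0520), *AC144521.1* (0.0533), *EYA4* (0.0548), *ERVH48-1* (0.0608) and *RHOBTB3* (0.0617), where the median gene was at 0.4995. *LPAR1*, a receptor for lysophosphatidic acid, had 6.91, 7.28 and 8.62 CPM in CTCF-WT, against 15.8, 13.0 and 12.7 CPM in CTCF-dRBR. With 6 libraries and a difference between groups in the pattern sought, such likeness is a description of these libraries.

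The fold changes were computed again with other tests, scalings and filters and with each library left out. The *FCGR2* sum lay between 0.79 and 1.57 on the log2 scale over 18 settings, and *FCGR2C* between 1.30 and 1.94, with a direction that the choice of these genes had fixed. *FCRLA* ranged from 0.09 to 0.97 and *FCRLB* from 0.12 to 0.76, both above 0 in 18 of 18 settings, and *HSPA6* from −0.67 to 0.16, below 0 in 13 of 16. The 2 settings on TPM moved the median of all genes tested to 0.40 and 0.54, and relative to that median the *FCGR2* sum stood at 1.09 and 1.03, *FCRLA* at 0.39 and 0.43, and *HSPA6* at −0.38 and −0.43. Keeping genes with low counts moved the median to 0.19, relative to which the *FCGR2* sum was at 0.60, *FCRLA* at −0.03 and *FCRLB* at 0.02.

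**Figure D5:**
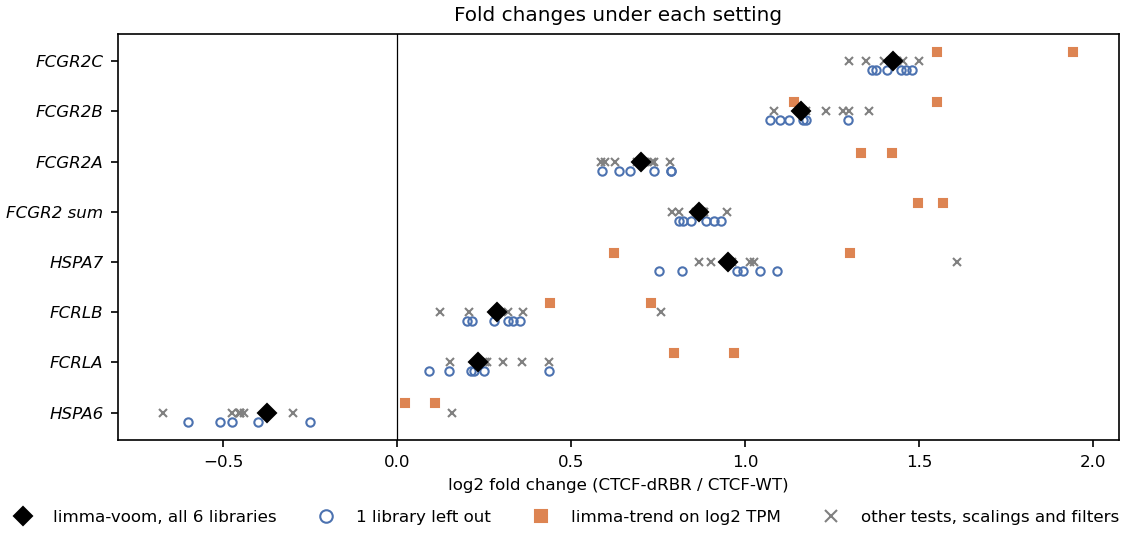
Log2 fold changes (CTCF-dRBR over CTCF-WT) of the tested members, the *FCGR2* sum and *HSPA7*, 1 symbol for each setting. Black diamonds are limma-voom on all 6 libraries, open circles leave out 1 library, orange squares use log2 TPM (not shifted by the median of all genes) and gray crosses are the other tests, scalings and filters. The *FCGR2* symbols all lie above 0.5, and *HSPA6* is the gene with symbols on both sides of 0.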

How the data were processed

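Total RNA libraries were prepared with the RiboErase kit and sequenced on a NovaSeq, with paired-end reads per the methods and single-end reads per the labels. The authors trimmed the reads with Trim Galore (0.6.3), aligned them to GRCh37 (hg19) with STAR (2.7.9a) and quantified the Gencode genes with RSEM (1.3.1). The deposited expected counts are not normalized and not all whole. The deposited TPM were scaled by the authors for effective gene length over all genes listed, small RNAs included and a fold on the log2(TPM + pseudocount) scale understates the change of low genes. The 92 spike-in sequences, all at 0 in both tables, were left out.

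Genes that reached 1 CPM in no library were dropped, as in the study's methods, which left 14044 of 57820 genes. Counts were TMM-normalized in edgeR (4.0.16; factors 0.934 to 1.06) and compared with limma-voom (limma 3.58.1, R 4.3.3) without covariates, two-sided, with Benjamini-Hochberg adjustment over all genes tested and a threshold of 0.05. Members under the filter were compared by exact permutation of mean CPM. Counts were rounded for edgeR's quasi-likelihood test and for DESeq2 (1.42.0). The other alternatives were voomWithQualityWeights, DESeq2 size factors, library size only, no filter, at least 1 CPM in 3 libraries, limma-trend on log2 TPM with a pseudocount of 1 or 0.1, the GC trend removed (a loess fit per library over the 13654 genes with a GC value), a replicate block, and each library left out. The scripts were tested on simulated counts. Total counts of 30034505 to 53166735 put the level of 3 counts at 0.0566 to 0.1 CPM, and intervals and floors cover counting error only.

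Transcripts, exons and coding parts came from Gencode v44 lifted to GRCh37, and promoters from RefSeq (GRCh38.p14). The members and the gene lists were chosen with earlier results of these data known. The text names the 8 members, their paralogs *FCGR3B* and *HSPA7*, genes next to the cluster, from every other list the 2 tested genes with the highest mean TPM and those with the most positive and most negative fold, and the 5 genes most like the *FCGR2* sum. Some genes that this rule names are not reported here. edgeR without CTCF-dRBR replicate 1 was added after seeing the data.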

Additional observations from a re-analysis of the deposited data

How the results depend on the processing

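Genes past an adjusted p of 0.05 numbered 0 of 14044 in limma-voom, and also 0 with edgeR, DESeq2 size factors, library size only, no filter, at least 1 CPM in 3 libraries and the replicate block, but 1619 with DESeq2, 9583 with quality weights, 833 with log2(TPM + 1), 760 with log2(TPM + 0.1), 1222 with the GC trend removed and 561 with edgeR without CTCF-dRBR replicate 1. Leaving out 1 library gave 0 to 535, the highest without CTCF-dRBR replicate 1. The count of members not picked for the contrast that passed went from 0 to 1 with quality weights (*FCRLA*) and was 0 under each other setting. The summed *FCGR2* fold moved from 0.87 on the log2 scale to 1.50 with log2(TPM + 1) and 1.57 with log2(TPM + 0.1), settings that also moved the median of the genes tested, and ranged from 0.81 to 0.93 with 1 library left out. *HSPA6* changed sign to 0.022 with log2(TPM + 1), 0.11 with log2(TPM + 0.1) and 0.16 with the GC trend removed. The TPM settings raise the median of the genes tested by more than that, and relative to it *HSPA6* stayed below 0. It was not tested without CTCF-WT replicate 2 or at 1 CPM in 3 libraries. For the removed GC trend the cause was not tested.

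The replicate numbers shared between the groups were not taken as pairs in limma-voom. Deviations from the group means of libraries with the same number correlated at −0.337, 0.0927 and −0.467. With 3 libraries a group, these values cannot show whether libraries of the same number were prepared together. With the replicate block the *FCGR2* sum was at 0.87, *HSPA7* at 0.96, *FCRLA* at 0.23, *FCRLB* at 0.28 and *HSPA6* at −0.44, with 0 genes past the threshold. The difference in mean CPM between the groups stayed between −0.055 and −0.018 for *FCGR3A* and between −0.0088 and 0.025 for *FCER1G* with 1 library left out. Depth limits these 2 genes most, since 7 counts was the highest in any library.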
